A study of Mus musculus with 12 samples.

Results

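Cholesterol synthesis was followed through 7 genes in pooled 8-cell mouse embryos: Hmgcs1, Idi1, Fdft1, Sqle, Sc5d and Dhcr7, which encode enzymes of the pathway, and Insig1, which encodes one of its sensors. They were taken by name as sterol pathway genes and are 7 of the 55401 genes counted, and all 7 passed the filter on low counts in every comparison. None of the 7 takes up cholesterol from outside the cell, so uptake genes are described here only as counts from a separate list. In embryos that had received Nr5a2 siRNA, Insig1 was higher and Fdft1 was lower than in embryos that had not, and the other 5 genes were not called in any comparison.

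The study measured RNA in embryos depleted of NR5A2, an orphan nuclear receptor, and of KLF5, a zinc finger transcription factor, to ask how these factors act together before implantation. Zygotes from 3 to 5 week old B6129F1 females mated with B6CBAF1 males were injected with control siRNA at 15 µM (control, n = 2 libraries), Nr5a2 siRNA at 5 µM (Nr5a2 KD, n = 3), Klf5 siRNA at 10 µM (Klf5 KD, n = 3) or both siRNAs (dKD, n = 4), for which no concentrations are given in the sources used here. All groups also received H2B-EGFP at 150 ng/µl as an injection marker and were grown in KSOM, an embryo culture medium. Each library was made from 10 embryos with a SMART-seq kit, which keeps neither strand nor molecular identifiers, and ERCC control RNA was spiked into the lysate. An siRNA lowers an mRNA without removing the gene, and nothing in the labels says that replicates were separate injections or days, so p-values measure the spread between these libraries only. The labels of these libraries name 2 sequencer models without saying which library was run on which, where the methods for RNA-seq name 1.

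Cells make cholesterol from acetyl-CoA, first through mevalonate to farnesyl diphosphate, then through squalene and lanosterol to cholesterol. The genes of both stretches are classical targets of SREBP2, a transcription factor that the escort protein SCAP carries from the endoplasmic reticulum to the Golgi when sterols are low. When sterols are plentiful, INSIG proteins hold SCAP in the endoplasmic reticulum, and Insig1 is itself an SREBP target, so that in many cell types the enzymes and Insig1 rise and fall together. SREBP acts at sterol regulatory elements, commonly beside the CCAAT box that NF-Y binds.

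The promoter windows of Insig1 and Hmgcs1 are shown because Insig1 rose most among the 7 genes and Hmgcs1, which did not pass the test, was the single member with the sterol regulatory letters searched for. The sequences are from RefSeq on GRCm38.p6, plus strand, chr5:28071162-28071362 for Insig1 and chr13:119690101-119690350 for Hmgcs1, upstream of the gene models. Capitals mark the sterol regulatory element TCACNCCAC and the CCAAT box, which reads ATTGG where it lies on the other strand.
Insig1: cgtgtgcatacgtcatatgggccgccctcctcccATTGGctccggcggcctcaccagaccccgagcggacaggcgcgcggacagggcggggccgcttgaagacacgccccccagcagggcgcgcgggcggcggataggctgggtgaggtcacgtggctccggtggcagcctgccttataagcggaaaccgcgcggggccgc
Hmgcs1: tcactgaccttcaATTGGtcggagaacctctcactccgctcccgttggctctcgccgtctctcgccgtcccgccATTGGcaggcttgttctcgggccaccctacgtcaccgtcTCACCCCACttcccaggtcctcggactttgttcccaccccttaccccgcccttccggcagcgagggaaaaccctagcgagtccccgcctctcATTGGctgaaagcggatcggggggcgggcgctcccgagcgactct

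Motifs were searched on both strands of 32851 RefSeq windows, each of 300 bases from 250 before to 50 after a transcript start, and windows were found for 5 of the 7 genes (Hmgcs1, Idi1, Dhcr7, Insig1 and Sc5d). The element TCACNCCAC was in a window of 1.44% of 27025 genes and in 1 of these 5 genes, Hmgcs1, where it lay 137 to 129 bases before the start. The CCAAT box was in 41.1% of genes and in 5 of 5. The NR5A motif CAAGGNCA was in 7.64% of genes and in 1 of 5, Dhcr7, 52 to 45 bases before a start. The KLF motif CCNCNCCC was in 51.9% of genes and in 4 of 5, 3 times in Insig1, and its matches overlapped one another in Dhcr7. Matches of different motifs did not share bases in these 5 genes. A match to such short letters is a description of the window and not a binding site.

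The 12 libraries held 6676683 to 12560926 counts on genes, and counts were scaled with TMM factors to CPM, counts for each 1e+06 on genes. Nr5a2 was at 210 and 225 CPM in control and at 24.1 to 38.7 CPM in the 7 libraries with Nr5a2 siRNA. Klf5 was at 443 and 466 CPM in control and at 72.7 to 144 CPM in Klf5 KD, and it was also low in Nr5a2 KD (109 to 158 CPM), so Nr5a2 KD embryos were low in both mRNAs. Of 8 markers of the 8-cell embryo none was at 0 in any library, with sums of 18210 to 32350 CPM. These sums were mostly Dppa3 and Dppa5a (means of 15770 and 3818 CPM in control) and say little of the other markers. Of 10 cumulus and granulosa cell markers 5 to 8 were at 0 in each library, with sums of 0.707 to 3.29 CPM. Summed oocyte markers were at 53.1 to 119 CPM and 2-cell stage markers at 11.5 to 24.4 CPM. Mitochondrially encoded genes took 4.41 to 13.2% of gene counts, a share that varied within each knockdown group. The share was highest in the 2 control libraries (13.2 and 12.9%), above every knockdown library. In pooled embryos, fewer cells and less RNA per cell cannot be told apart.

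Insig1, on chromosome 5 (28071363 to 28078662, plus strand, GRCm38), encodes the endoplasmic reticulum protein that retains SCAP. It was at 4.84 and 4.02 CPM in control and at 10.7, 12.5 and 7.89 CPM in Nr5a2 KD. In Klf5 KD it was at 3.95, 3.07 and 4.98 CPM, and in dKD at 16.8, 13.7, 16.6 and 17.6 CPM. Every library with Nr5a2 siRNA was above every library without it, while Klf5 KD overlapped control. The values rest on 26 to 149 counts per library, with 26 to 44 in the 5 libraries without Nr5a2 siRNA.

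A gene was called when edgeR's quasi-likelihood test gave an adjusted p under 0.05 (Benjamini-Hochberg over all genes tested) and a change of at least 2-fold. Log2 fold changes are given ± their standard error. In dKD, Insig1 was 3.75-fold higher than in control (log2 fold change 1.91 ± 0.318, edgeR adjusted p = 0.00597). It was 4.08-fold higher in dKD than in Klf5 KD, a comparison that adds Nr5a2 siRNA to Klf5 siRNA (log2 fold change 2.03 ± 0.312, edgeR adjusted p = 0.0016). Set against control, Nr5a2 KD gave 1.25 ± 0.394, which did not pass (edgeR adjusted p = 0.0718). A fit over all 12 libraries with a term for each siRNA gave 3.23-fold higher Insig1 in the 7 libraries with Nr5a2 siRNA than in the 5 without (log2 fold change 1.69 ± 0.241, edgeR adjusted p = 8.2e-05). The change in dKD against control lost its call when control replicate 1 or 2 was left out (adjusted p = 0.0647 and 0.0894 by edgeR), with log2 fold changes between 1.79 and 2.04 when any 1 library was left out. In Nr5a2 KD against control Insig1 was called when Nr5a2 KD replicate 3 was left out, and in 2 of 11 other settings, ERCC counts as library sizes (log2 fold change 1.95, edgeR adjusted p = 0.0402) and all 12 libraries in 1 fit (1.23, adjusted p = 0.0471).

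**Figure D1:**
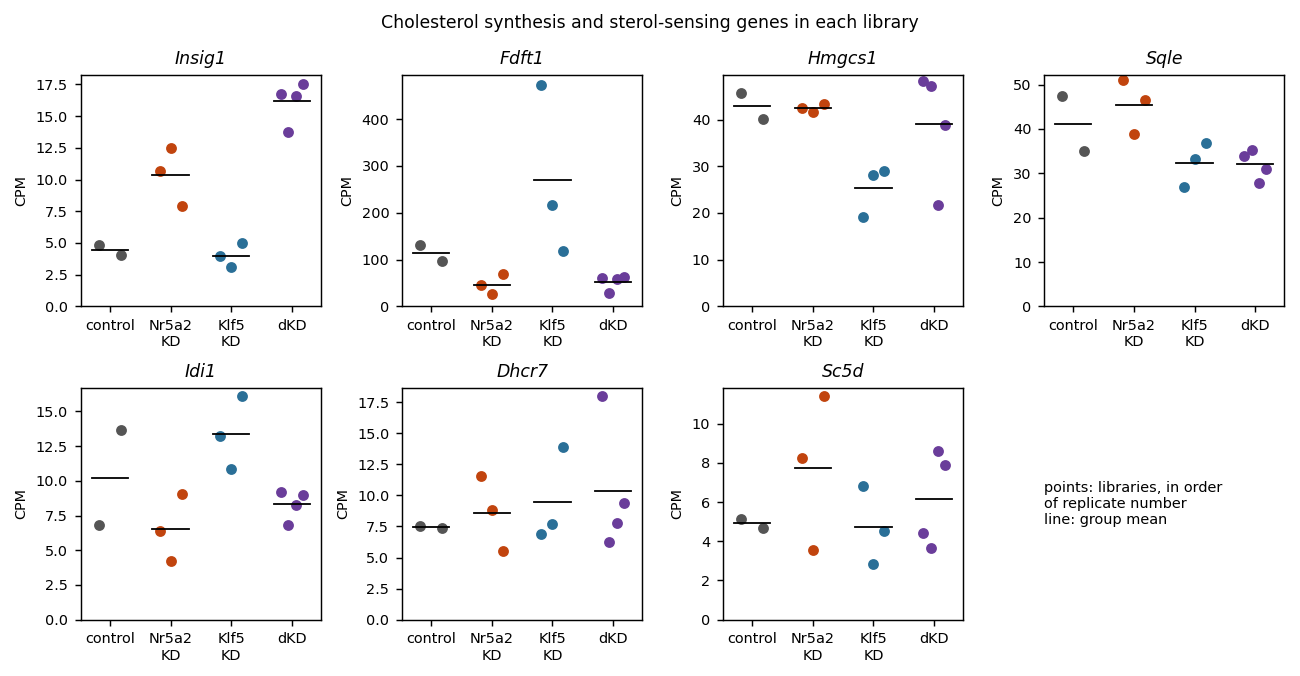
CPM (y axis, linear, from 0) of the 7 genes in each of the 12 libraries, grouped by siRNA on the x axis, with points in order of replicate number and a line at the group mean. For Insig1 all 7 libraries with Nr5a2 siRNA (7.89 to 17.6 CPM) lie above the 5 without (3.07 to 4.98 CPM), and for Fdft1 all 7 (26.1 to 69.2 CPM) lie below the 5 without (96.4 to 473 CPM).

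Fdft1, on chromosome 14 (63145150 to 63179578, minus strand), encodes squalene synthase, the enzyme that commits farnesyl diphosphate to sterols. It was at 131 and 96.4 CPM in control, at 44.9, 26.1 and 69.2 CPM in Nr5a2 KD and at 60.3, 29.0, 59.3 and 62.9 CPM in dKD. In Klf5 KD it was at 473, 217 and 119 CPM, and this group varied more than any other. All 7 libraries with Nr5a2 siRNA were below all 5 without it, dKD overlapped Nr5a2 KD, and Klf5 KD overlapped control.

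Fdft1 fell in Nr5a2 KD to 2.37-fold below control (log2 fold change -1.24 ± 0.342, edgeR adjusted p = 0.0421). Set against control, dKD gave -1.06 ± 0.297, just short of the threshold (edgeR adjusted p = 0.0505). Against Klf5 KD, dKD was 5.07-fold lower (log2 fold change -2.34 ± 0.399, edgeR adjusted p = 0.00255). The fit over all 12 libraries gave 3.81-fold lower Fdft1 with Nr5a2 siRNA (log2 fold change -1.93 ± 0.329, edgeR adjusted p = 4e-04).

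How firmly Fdft1 was set apart from control depended on few libraries. The call in Nr5a2 KD against control was lost when either control library or Nr5a2 KD replicate 1 or 2 was left out (log2 fold changes -1.44 to -0.96, edgeR adjusted p up to 0.288), and it was kept without Nr5a2 KD replicate 3 (log2 fold change -1.65, edgeR adjusted p = 0.00283). It was also lost with total counts as library sizes (-1.12, edgeR adjusted p = 0.0804), with all 12 libraries in 1 fit (-1.28, adjusted p = 0.123) and with ERCC counts as library sizes (-0.33, adjusted p = 0.684), a scaling under which the median of all genes was 0.82 in place of 0.04. Without Klf5 KD replicate 1, the library with the highest Fdft1, dKD against Klf5 KD gave -1.63 (edgeR adjusted p = 0.0129) and the fit over all libraries gave -1.46 (edgeR adjusted p = 0.000904), both still called. Ctsb, which encodes a lysosomal protease, lies on the other strand and overlaps 18.8% of the exon bases of Fdft1, and counting did not use strand. Ctsb was at 79.9 and 82.1 CPM in control and at 43.8 to 73.7 CPM in the 7 libraries with Nr5a2 siRNA, where Klf5 KD, at 52.8 to 98.3 CPM, overlapped them, and it was not called (log2 fold change -0.48, edgeR adjusted p = 0.0756 over all 12 libraries).

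**Figure D2:**
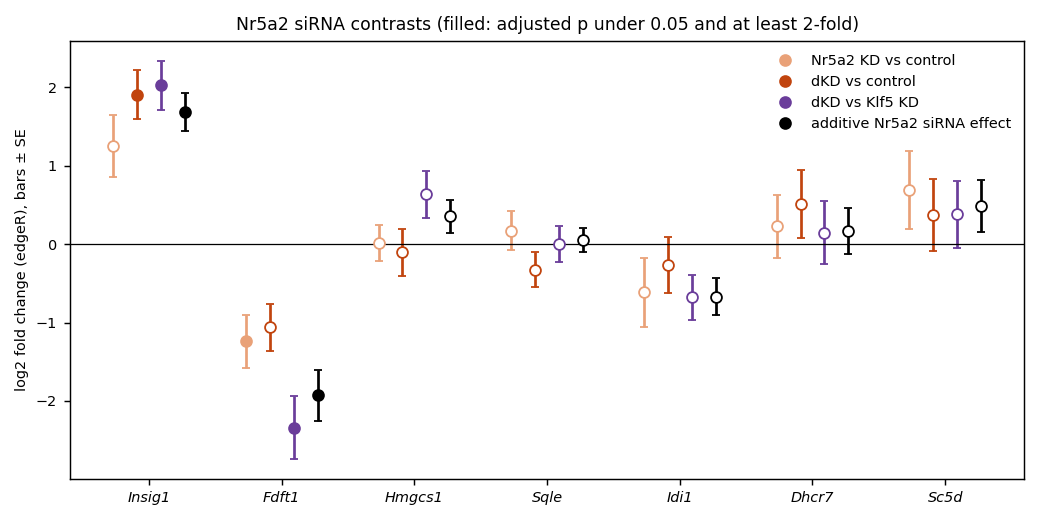
log2 fold change (y axis, bars are the standard error from edgeR) of the 7 genes on the x axis, for Nr5a2 KD against control, dKD against control, dKD against Klf5 KD and the Nr5a2 siRNA term over all 12 libraries. Filled points were called: Insig1 in 3 of the 4 contrasts, always higher, and Fdft1 in 3 of the 4, always lower. The 4 contrasts, called Nr5a2 contrasts here, share libraries, and dKD against control holds both siRNAs, so they are not separate tests.

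The counts of called genes are set beside those of all genes. In Nr5a2 KD against control 1 of the 7 genes was called (Fdft1), where 7.86% of 13262 genes were called. In dKD against control 1 was called (Insig1), with 7.24% of 13724 genes called. In dKD against Klf5 KD 2 were called (Insig1 and Fdft1), with 10.8% of 12904 genes called, and the groups did not overlap for 3 of the 7 (Insig1, Fdft1 and Idi1), as for 24.8% of all genes. In the fit over all 12 libraries 2 were called for Nr5a2 siRNA, with 13.3% of 14830 genes called, and 2 did not overlap, as for 11.7% of all genes. The members' median log2 fold change in that fit was 0.17, with 0.03 over all genes.

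The mevalonate enzymes among the 7 are Hmgcs1, HMG-CoA synthase, and Idi1, which makes dimethylallyl diphosphate. Hmgcs1 lies on chromosome 13 (119690379 to 119708260, plus strand) and Idi1 on the same chromosome (8885501 to 8892451, plus strand), each overlapped in 12.1 and 9.22% of its exon bases by an antisense gene model with at most 11.5 counts in a library. Hmgcs1 was at 45.7 and 40.2 CPM in control, at 42.4, 41.6 and 43.4 CPM in Nr5a2 KD, at 19.0, 28.1 and 29.0 CPM in Klf5 KD and at 48.2, 47.2, 21.8 and 38.9 CPM in dKD. Klf5 KD lay below control in all 3 libraries (log2 fold change -0.76 ± 0.292, edgeR adjusted p = 0.551, and p = 0.1 in the two-sided exact permutation test, which cannot go lower with 3 against 2 libraries). Idi1 was at 6.81 and 13.7 CPM in control, at 6.35, 4.26 and 9.02 CPM in Nr5a2 KD, at 13.2, 10.8 and 16.1 CPM in Klf5 KD and at 9.21, 6.79, 8.25 and 8.95 CPM in dKD. All 4 dKD libraries of Idi1 were below all 3 Klf5 KD libraries (log2 fold change -0.68 ± 0.288, edgeR adjusted p = 0.15, and p = 0.0286 in the exact permutation test, the smallest possible). With Nr5a2 siRNA over all 12 libraries Idi1 had a log2 fold change of -0.67 ± 0.238 (edgeR adjusted p = 0.0531).

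Sqle, squalene epoxidase, acts directly after Fdft1 and lies on chromosome 15 (59315077 to 59331192, plus strand). It was at 47.3 and 34.9 CPM in control, at 51.1, 38.9 and 46.5 CPM in Nr5a2 KD, at 26.9, 33.2 and 36.8 CPM in Klf5 KD and at 33.9, 35.4, 27.8 and 31.0 CPM in dKD. Set against Nr5a2 KD, dKD gave a log2 fold change of -0.51 ± 0.195 (edgeR adjusted p = 0.999). With Nr5a2 siRNA over all 12 libraries the log2 fold change of Sqle was 0.05 ± 0.158, where Fdft1 fell by 1.93 on the log2 scale.

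The late enzymes were low and scattered, and their genes lie on chromosome 9 (Sc5d, 42251595 to 42264256, minus strand) and chromosome 7 (Dhcr7, 143823145 to 143848410, plus strand). Sc5d, sterol C5-desaturase, was at 5.14 and 4.69 CPM in control, at 8.24, 3.57 and 11.4 CPM in Nr5a2 KD, at 6.82, 2.83 and 4.54 CPM in Klf5 KD and at 4.41, 3.68, 8.60 and 7.89 CPM in dKD. Dhcr7, which reduces 7-dehydrocholesterol to cholesterol, was at 7.56 and 7.36 CPM in control, at 11.5, 8.79 and 5.51 CPM in Nr5a2 KD, at 6.91, 7.66 and 13.9 CPM in Klf5 KD and at 18.03, 6.22, 7.78 and 9.42 CPM in dKD. For both genes the groups overlapped with control in each knockdown. Over 8 comparisons, the 40 tests of Hmgcs1, Idi1, Sqle, Sc5d and Dhcr7 gave log2 fold changes from -0.76 to 0.69 and 0 calls by edgeR, with 5 tests at an unadjusted p under 0.05. Over all genes the share called ran from 0 to 13.3% in these comparisons, and the share at an unadjusted p under 0.05 from 3.43 to 33.8%.

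None of the 7 genes was called for Klf5 siRNA in the fits reported here. In Klf5 KD against control 0 of 7 were called, with 2 at an unadjusted p under 0.05, where edgeR called 0% of 12838 genes (1088 at an unadjusted p under 0.05, and 50 called by DESeq2). Klf5 itself, the siRNA target, was 4.09-fold lower there and was not called either (log2 fold change -2.03 ± 0.292, edgeR adjusted p = 0.0996). Fdft1 had a log2 fold change of 1.27 ± 0.471 there (edgeR adjusted p = 0.548) and was called in 2 of 11 other settings, without a filter (1.34, adjusted p = 0.0104) and with the replicate block (1.53, adjusted p = 0.00101). Insig1 had a log2 fold change of -0.14 ± 0.471 (edgeR adjusted p = 0.958). In dKD against Nr5a2 KD 0 of 7 were called, with 2 at an unadjusted p under 0.05, where edgeR called 0% of 13017 genes (447 at an unadjusted p under 0.05, and 4 by DESeq2). The 2 groups did not overlap for 2 of the 7 genes, Insig1 (higher in dKD) and Sqle (lower in dKD). The share of all genes without overlap was not counted for this comparison, so no result is read from it. Insig1 had a log2 fold change of 0.65 ± 0.258 there (edgeR adjusted p = 0.999). The Klf5 siRNA term over all 12 libraries called 0 of 7, with 1 at an unadjusted p under 0.05, against 0.0472% of 14830 genes (7 genes, with 900 at an unadjusted p under 0.05, and 38 called by DESeq2). Those 7 calls fell to 0 without Nr5a2 KD 2 or without dKD 4. The interaction of the siRNAs, the departure of dKD from the sum of the single knockdowns, called 0 of 7 and 0% of 14830 genes (0 and 715 at an unadjusted p under 0.05, and 3 genes called by DESeq2). Its estimate was 0.79 ± 0.445 for Insig1 and -1.07 ± 0.629 for Fdft1.

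Per kilobase of exon, Fdft1 had the highest level of the 7 genes in every group, where the mean ± SD in CPM per kb was 27.6 ± 5.89 over the 2 control libraries, 11.4 ± 5.24 over the 3 of Nr5a2 KD, 65.5 ± 44.4 over the 3 of Klf5 KD and 12.8 ± 3.88 over the 4 of dKD. In control it was followed by Hmgcs1 (9.34 ± 0.848 CPM per kb), Sqle (7.42 ± 1.58), Idi1 (2.92 ± 1.38), Insig1 (1.43 ± 0.188), Dhcr7 (1.28 ± 0.0242) and Sc5d (1.01 ± 0.0663), and of these neighbours only Insig1 and Dhcr7 overlapped. In Nr5a2 KD the Fdft1 libraries overlapped those of Hmgcs1 (9.24 ± 0.188 CPM per kb), and the only neighbours that did not overlap were Sqle (8.2 ± 1.11) and Insig1 (3.35 ± 0.751). In dKD, Insig1 stood at 5.23 ± 0.544 CPM per kb (SD, n = 4), next to Sqle at 5.77 ± 0.603 and above Idi1 at 2.37 ± 0.31, and this last pair was the only one of neighbours without overlap. Insig1 was thus in place 5 of 7 in control, in place 6 in Klf5 KD (1.29 ± 0.31 CPM per kb, overlapping Dhcr7 and Sc5d) and in place 4 in both groups with Nr5a2 siRNA.

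Along the whole pathway genes were called in both directions. Of 23 synthesis genes listed, 6 of them from the set of 7, 22 were tested, and in the fit over all 12 libraries 2 were called higher and 4 lower with Nr5a2 siRNA, with a median log2 fold change of 0.07 (0.03 over all genes), where 6.74% of all genes were called higher and 6.55% lower. In dKD against Klf5 KD 2 were higher and 5 lower (median 0.14, with 0.02 over all genes), where 5.38% of all genes were higher and 5.41% lower. Of those 7 calls, that of Cyp51 held in 0 of the 7 fits without 1 library, where its log2 fold change was 1.19 to 1.62 and its adjusted p 0.0592 to 0.156. The call of Lss held in 1 and that of Pmvk in 3 (lost without Klf5 KD 2 or 3 or dKD 3 or 4), and those of Msmo1, Erg28 and Ebp were lost without Klf5 KD 1. Without that library Ebp had a log2 fold change of -1.04 (edgeR adjusted p = 0.0649), while Msmo1 at -0.96 and Erg28 at -0.94 still passed the adjusted p (0.0459 and 0.0421) at under 2-fold. In Nr5a2 KD against control 1 was higher and 1 lower (median 0.18), where 3.45% of all genes were higher and 4.42% lower. There 7 of the 9 mevalonate genes had log2 fold changes above 0 (median 0.77, with 0.04 over all genes), and 7 of the 13 tested from squalene onward (median 0.17). The mevalonate median was smaller elsewhere, at 0.25 in dKD against control, 0.38 in Klf5 KD against control and 0.37 in the fit over all libraries. From squalene onward these medians were -0.32, 0.34 and -0.03. The list was written with earlier results of these data known. Of the 9 mevalonate genes, Pmvk, phosphomevalonate kinase, rose in the fit over all libraries (log2 fold change 1.19 ± 0.22, edgeR adjusted p = 0.000799), from 3.54 to 6.02 CPM in the 5 libraries without Nr5a2 siRNA to 7.92 to 15.0 CPM in the 7 with it, a call kept in 12 of 12 fits without 1 library. Fdps, which makes farnesyl diphosphate, the substrate of Fdft1, rose in Nr5a2 KD against control (log2 fold change 1.28 ± 0.296, edgeR adjusted p = 0.0202), a call lost without control 1 or control 2 (adjusted p = 0.16 and 0.197), lost without Nr5a2 KD 3 for a change under 2-fold (log2 fold change 0.96), and kept in 8 of 11 other settings. Over all 12 libraries Fdps had a log2 fold change of 0.67 (edgeR adjusted p = 0.103), and 26.7% of its exon bases are shared with the gene model Gm43738 on the same strand. Acat2, Mvk, Mvd and Ggps1 were not called either, with log2 fold changes from -0.11 to 0.73.

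**Figure D3:**
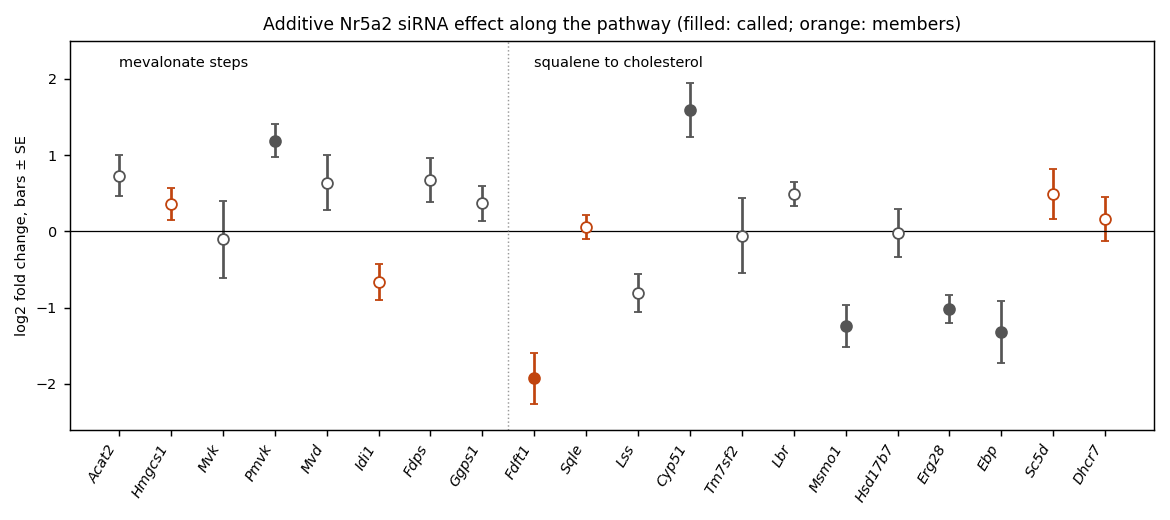
log2 fold change for Nr5a2 siRNA in the fit over all 12 libraries (y axis, bars are the standard error) of the synthesis genes described here in the order of their steps (x axis), with the genes of the set of 7 in orange and called genes filled. Pmvk and Cyp51 are called above 0, and Fdft1, Msmo1, Erg28 and Ebp below 0.

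From squalene onward 13 of 14 genes were tested, and 1 was called higher and 4 lower in the fit over all 12 libraries. Of all genes 6.74% were called higher and 6.55% lower there. Cyp51, lanosterol demethylase, rose from 0.669 to 2.87 CPM in the 5 libraries without Nr5a2 siRNA to 4.005 to 7.77 CPM in the 7 with it (log2 fold change 1.59 ± 0.358, edgeR adjusted p = 0.00381), also in 12 of 12 fits without 1 library. Msmo1, methylsterol monooxygenase, was called lower in the same fit (log2 fold change -1.24 ± 0.277, edgeR adjusted p = 0.0036). Erg28, a scaffold of the demethylation complex, was lower by a log2 fold change of -1.02 ± 0.185 (edgeR adjusted p = 0.000679), and Ebp, sterol isomerase, by -1.32 ± 0.411 (edgeR adjusted p = 0.0275). Msmo1 and Ebp were at their highest in Klf5 KD replicate 1, at 309 and 222 CPM, as Fdft1 was. Without that library the log2 fold changes were -0.80 for Msmo1, -0.90 for Erg28 and -0.65 for Ebp, and none of the 3 was called, nor were they with ERCC counts as library sizes (-0.85, -0.64 and -0.96). Of 10 other settings 9 kept the call of Msmo1, 7 that of Ebp (lost also with total counts and the replicate block) and 6 that of Erg28 (lost also with these and at a mean of at least 50 counts). Without 1 library Msmo1 was called in 11 of 12 fits and Ebp in 6 (also lost without Nr5a2 KD 1 or any dKD library, with log2 fold changes of -1.58 to -0.65 and adjusted p up to 0.128). Erg28 was called in 6 (also lost without control 2, Nr5a2 KD 2 or 3, or dKD 1 or 4). Its log2 fold change stayed between -1.13 and -0.90 and its adjusted p at or below 0.00427, so these calls ended at the 2-fold line. Lss, lanosterol synthase, was called lower in dKD against Klf5 KD (log2 fold change -1.08 ± 0.331, edgeR adjusted p = 0.047), a call that held without dKD 1, but in no other fit without 1 library, and in 7 of 11 other settings. Over all 12 libraries Lss (log2 fold change -0.81, edgeR adjusted p = 0.0272) and Lbr (0.49, adjusted p = 0.0355) passed the adjusted p but changed by less than 2-fold, and Tm7sf2 and Hsd17b7 had log2 fold changes of -0.06 and -0.03.

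Of the 7 sensing genes, Insig1 was the only one called for Nr5a2 siRNA. Its paralogue Insig2 had a log2 fold change of -0.11 (edgeR adjusted p = 0.901 over all 12 libraries), and Scap one of -0.14 (adjusted p = 0.702). Srebf2, which encodes SREBP2, was at 0 to 4 CPM, with a log2 fold change of 1.87 ± 0.714 (edgeR adjusted p = 0.0702). Srebf1 and the protease genes Mbtps1 and Mbtps2 had log2 fold changes of 0.02, 0.21 and -0.29. Of 12 uptake and trafficking genes 8 were tested in the same fit and 0 were called by edgeR (median 0.28, with 0.03 over all genes). Of all genes 13.3% were called, so 0 of 8 is near that share.

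In the fit over all 12 libraries, 1 of 7 tested storage and efflux genes was called higher and 1 lower, and 2 of 8 fatty acid genes were called higher and 1 lower. Of all genes 6.74% were higher and 6.55% lower in that fit. Soat2, which esterifies cholesterol for storage, fell in all 4 Nr5a2 contrasts, with 38.8 and 46.7 CPM in control, 12.5 to 18.7 CPM in Nr5a2 KD, 36.9 to 50.9 CPM in Klf5 KD and 6.72 to 23.3 CPM in dKD (log2 fold change over all libraries -1.62, edgeR adjusted p = 0.000134). Apoe, a lipoprotein component, rose in all 4 (log2 fold change 1.73, edgeR adjusted p = 0.00117). Over all libraries the calls of both genes held in 12 of 12 fits without 1 library. Soat2 lost its call without control 1 in Nr5a2 KD against control and without control 1, control 2 or dKD 4 in dKD against control (adjusted p up to 0.163 by edgeR). Apoe lost its call without control 1 or 2 in Nr5a2 KD against control, without control 2 in dKD against control, and without Klf5 KD 2, Klf5 KD 3 or dKD 3 in dKD against Klf5 KD. Among the other tested storage and efflux genes 0 were called. Of the 8 tested fatty acid genes that SREBP1 is known to drive, Fasn, fatty acid synthase, rose (log2 fold change 1.46, edgeR adjusted p = 9.55e-05), as did the desaturase gene Scd2 (3.25, adjusted p = 0.000325), from 0.151 to 1.90 CPM without Nr5a2 siRNA to 3.39 to 23.3 CPM with it. The related desaturase gene Scd1 fell (-1.61, edgeR adjusted p = 6.91e-05), with 23.2 to 29.8 CPM without Nr5a2 siRNA and 4.36 to 11.9 CPM with it, and the calls of these 3 genes held in 12 of 12 fits without 1 library. In the same fit 2 of 8 markers of the 8-cell embryo were called lower, Dppa5a and Nanog (median log2 fold change of the list -0.71). Of 6 oocyte markers 0 were called by edgeR. Of 6 markers of the 2-cell stage 1 was called higher, Zfp352, while 4 of the 6 had log2 fold changes below 0 (median -0.22). Without 1 library these calls held in 10 of 12 fits for Dppa5a (not without Klf5 KD 1 or dKD 4, where it passed the adjusted p at under 2-fold), in 8 for Zfp352 (not without control 1, control 2, Klf5 KD 2 or dKD 3) and in 4 for Nanog (those without Nr5a2 KD 3, Klf5 KD 1, dKD 1 or dKD 2). Across these fits the log2 fold change was -1.13 to -0.97 for Dppa5a, 1.00 to 1.14 for Zfp352 and -1.42 to -0.93 for Nanog. The calls held in 7 of 10 other settings for Dppa5a and Nanog and in 7 of 9 for Zfp352. In Nr5a2 KD against control 1 of the 8 markers of the 8-cell embryo was called lower, Tead4, where 4.42% of all genes were called lower. Its mean was 47.8 CPM in Nr5a2 KD and 97.9 CPM in control. That call held in 6 of 11 other settings, and the log2 fold change was -1.32 to -0.86 with 1 library left out.

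The mitochondrial share of counts moved with Fdft1 inside Klf5 KD and Nr5a2 KD. In Klf5 KD replicates 1, 2 and 3 the share was 4.41, 8.28 and 11.8% and Fdft1 was at 473, 217 and 119 CPM. In Nr5a2 KD the replicate with the lowest share (6.18%) had the most Fdft1 (69.2 CPM) and that with the highest (12.5%) the least (26.1 CPM). In dKD the shares of 12.8, 12.6, 6.75 and 6.17% went with 60.3, 29.0, 59.3 and 62.9 CPM. The 2 control libraries had the highest shares of the 12, 13.2 and 12.9%, with 131 and 96.4 CPM of Fdft1. Control had no library at a low share, so in fits against control the share and the siRNA are partly confounded. After subtraction of group means, Pearson's r with the share over the 12 libraries was -0.81 for Fdft1, -0.80 for Sc5d, -0.30 for Idi1, 0.32 for Insig1, 0.45 for Sqle, 0.56 for Dhcr7 and 0.64 for Hmgcs1, so the 7 genes went in both directions. It was -0.98 for Fdps, -0.78 for Ebp and -0.63 for Msmo1, which were singled out after their values were seen. These values describe libraries that share depth and library preparation with the share itself. With the share as a covariate, Fdft1 stayed called for Nr5a2 siRNA over all libraries (log2 fold change -1.93, edgeR adjusted p = 1.22e-06), in Nr5a2 KD (-2.08, adjusted p = 0.00276) and in dKD against Klf5 KD (-1.94, adjusted p = 0.000873), and it was also called in dKD against control (-1.34, adjusted p = 0.0253). The log2 fold change of Fdft1 in Klf5 KD against control turned from 1.27 to -0.33 with this covariate, and Fdps in Nr5a2 KD was no longer called (log2 fold change 0.72). At a low share, dKD replicates 3 and 4 had 59.3 and 62.9 CPM of Fdft1 and Klf5 KD replicate 1 had 473 CPM, and at a high share dKD replicates 1 and 2 had 60.3 and 29.0 CPM and Klf5 KD replicate 3 had 119 CPM, too few libraries for a test at either level.

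**Figure D4:**
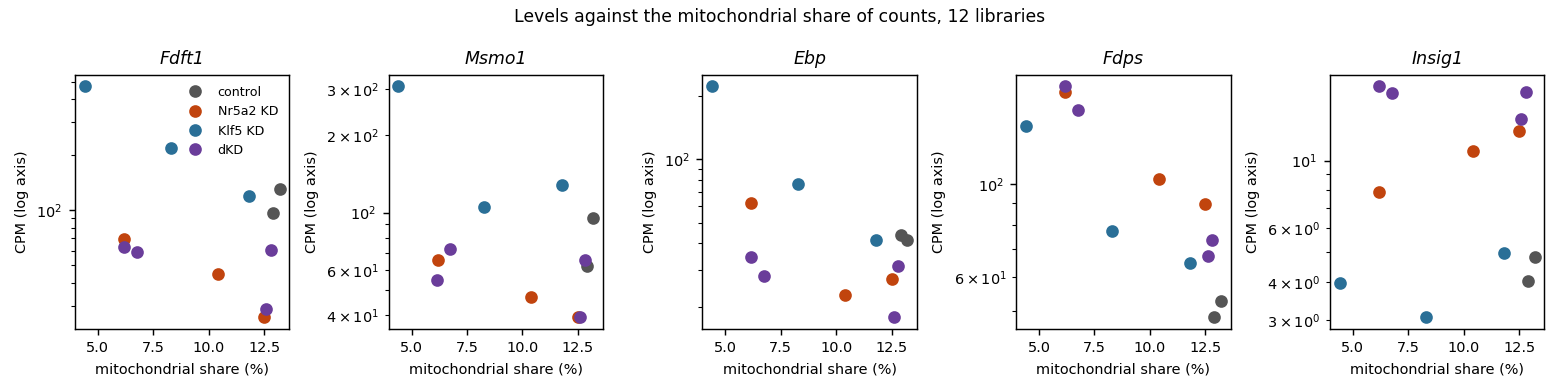
CPM on a log axis (y) of Fdft1, Msmo1, Ebp, Fdps and Insig1 against the mitochondrial share of gene counts in percent (x), 1 point for each of the 12 libraries, coloured by group. In Klf5 KD, Fdft1 falls from 473 to 119 CPM as the share goes from 4.41 to 11.8%. Both Insig1 and Fdft1 separate the 7 libraries with Nr5a2 siRNA from the 5 without.

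Levels of the 7 genes did not all follow each other across the 12 libraries. Pearson's r between pairs, on log2 CPM, ran from -0.78 for Fdft1 and Insig1 to 0.70 for Fdft1 and Idi1, with 0.68 for Hmgcs1 and Sqle. The pathway genes most like Fdft1 were Msmo1 (r = 0.94) and Ebp (r = 0.91), and those most like Insig1 were Pmvk (r = 0.80) and Cyp51 (r = 0.78). These values were looked up after the calls were known and include the difference between the groups. After subtraction of group means, r was -0.29 for Fdft1 and Insig1, 0.25 for Fdft1 and Idi1 and 0.69 for Hmgcs1 and Sqle. Among 14830 genes, those closest to the mean profile of the 7 were Ipp (r = 0.88), Tiam2 (0.84), Gm22468 (0.84), Mvk (0.83) and Gcat (0.83). Of these Mvk is the mevalonate kinase gene, at only 3 to 22 counts per library. The 7 genes themselves followed that profile unevenly, with r = 0.59 for Sc5d, 0.48 for Dhcr7, 0.46 for Idi1, 0.31 for Fdft1, 0.10 for Insig1, -0.004 for Sqle and -0.06 for Hmgcs1. Likeness to the profile is thus not likeness to each of the 7. The median r was -0.01 over all genes and 0.10 over the 16 other synthesis genes tested.

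**Figure D5:**
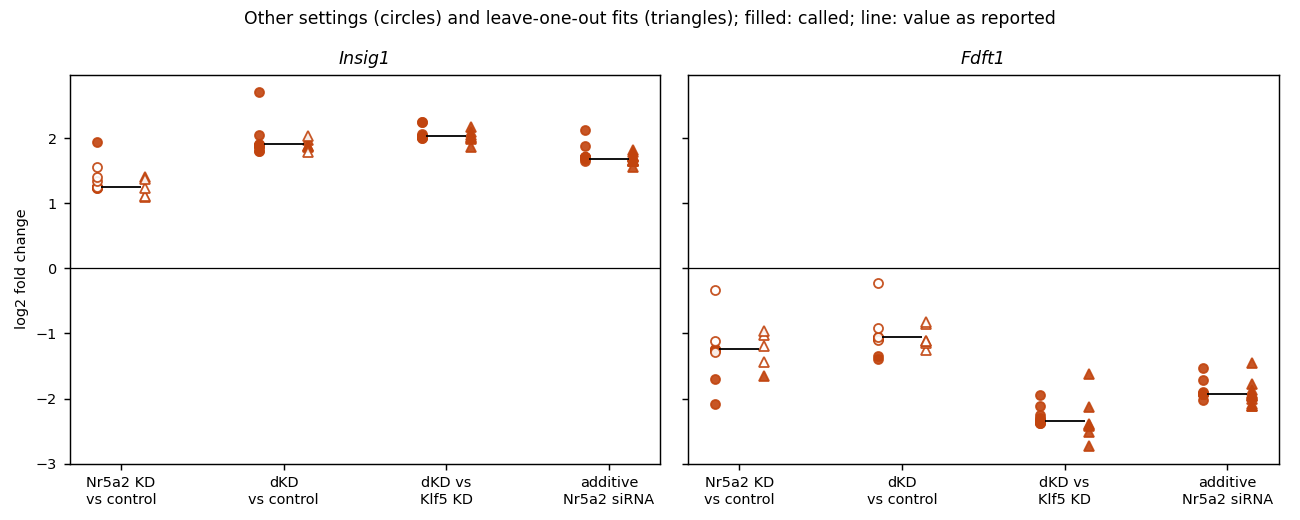
log2 fold change of Insig1 (left) and Fdft1 (right) in 4 Nr5a2 contrasts (x axis) under the other settings (circles) and with 1 library left out (triangles), filled where called, with a line at the value reported. For dKD against Klf5 KD and for the Nr5a2 siRNA term over all libraries every point is filled for both genes, between 1.56 and 2.25 for Insig1 and between -2.73 and -1.46 for Fdft1.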

How the data were processed

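RNA-seq of 12 libraries of pooled 8-cell embryos was analysed. Reads were trimmed by the authors (Trim Galore 0.6.2), aligned to GRCm38 plus the spike-in and marker sequences (STAR) and assigned to exons (featureCounts 2.0.1, fractional assignment). What they deposited is an estimated count for every gene, not normalized. Read pairs over more than 1 gene were divided among those genes, so 7.3 to 8.66% of the values in a library were not whole, and they were rounded here. GENCODE M21 gave symbols for 55141 of 55401 genes, and 260 kept their identifier. Promoter sequences came from the RefSeq table on GRCm38.p6.

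Groups were compared in R 4.3.3 with edgeR 4.0.16 (TMM, filterByExpr with min.count 10 and min.total.count 15, glmQLFit, glmQLFTest, Benjamini-Hochberg adjustment) over the libraries of the groups compared, and over all 12 for the additive and interaction terms. Single values were compared by two-sided exact permutation tests, and a prior count of 2 was used for log2 CPM profiles. The depth limits genes at a few CPM, and counting error is only part of their spread. The alternatives were DESeq2 1.42.0, its size factors, total or ERCC counts as library sizes, no mitochondrial genes, no filter, a mean of at least 50 counts, all 12 libraries in 1 fit, the replicate number as a block, the mitochondrial share as a covariate, unrounded values, and leaving out 1 library at a time.

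Same-numbered libraries of Nr5a2 KD and dKD deviated together from their group means (r = 0.13, 0.221 and 0.254 over 14830 genes), so the numbers were taken to pair these groups, although Nr5a2 KD 3 and dKD 4, with different numbers and both with a low mitochondrial share, had r = 0.264. No other 2 groups met the rule that every pair exceed 0.1. Text names the 7 genes, the siRNA targets, the measured genes of the synthesis and sensing lists, a few of which are not reported here, genes of the other lists called in an Nr5a2 contrast, and the 5 genes most like the 7. Ctsb was chosen after their values were seen. Members and lists were chosen with earlier results of these data known. Plots were made in matplotlib 3.10.9. Chromatin data of the study were not analysed here.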

Additional observations from a re-analysis of the deposited data

Results flagged for a closer look

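In the group of 4 libraries, dKD, 41 named genes were examined for a library far from the other libraries by the critical value of Dixon's ratio, which chance exceeds in about 1 in 20 groups, and 3 exceeded it. Fdft1 was at 28.99 CPM in dKD replicate 2, where the next lowest library had 59.28 CPM. Apoe was at 31.23 CPM in dKD replicate 3, where the next highest had 21.09 CPM. Mvd, mevalonate diphosphate decarboxylase, was at 2.774 CPM in dKD replicate 1, where the next lowest had 4.241 CPM. Groups of 2 and 3 libraries were not examined, and the interaction of the siRNAs was called by edgeR for 0 of the 7 sterol genes.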

How the results depend on the processing

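Insig1 stayed called for Nr5a2 siRNA over all libraries in 10 of 10 other settings (log2 fold change 1.66 to 2.13) and in dKD against Klf5 KD in 11 of 11 (2 to 2.25), and Fdft1 likewise in 10 of 10 (-2.02 to -1.53) and 11 of 11 (-2.37 to -1.94), and leaving out any 1 library ended none of these calls. In Nr5a2 KD against control the number of the 7 genes called was 0 in place of 1 with total counts, was Insig1 and not Fdft1 with ERCC sizes and with all libraries in 1 fit, and ranged from 0 to 2 with 1 library left out (0 without control 1, control 2, Nr5a2 KD 1 or Nr5a2 KD 2, and 2, Fdft1 and Insig1, without Nr5a2 KD 3). In dKD against control it was 2 in place of 1, Fdft1 being added, with DESeq2, with its size factors, without mitochondrial genes, without a filter, at a mean of at least 50 counts, with the replicate block and with the mitochondrial covariate, and 0 to 1 with 1 library left out (0 without control 1 or 2). In Klf5 KD against control it was 1 (Fdft1) in place of 0 without a filter and with the replicate block.

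Signs turned in values that were not called. Insig1 in Klf5 KD against control was 0.46 with ERCC library sizes, 0.0272 with the mitochondrial covariate and -0.309 to 0.0204 with 1 library left out. With that covariate Fdft1 was -0.33 in Klf5 KD against control and 0.0235 in the interaction. With 1 library left out Fdft1 in dKD against Nr5a2 KD ranged from -0.11 to 0.60, and for Nr5a2 siRNA Sqle ranged from -0.0293 to 0.112 and Dhcr7 from -0.0623 to 0.358. Of 749 values of the 5 uncalled genes over all comparisons, 64 changed sign and 0 were called, and 4, all of Idi1, passed the adjusted p at under 2-fold. With deviations from group means, 1 of the 5 genes most like the 7 was shared. The causes were not tested.

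ERCC library sizes moved the all-gene median log2 fold change to 0.82 in Nr5a2 KD, 0.84 in dKD, 0.66 in Klf5 KD and 0.19 in dKD against Klf5 KD, and to 0.45 for Nr5a2 siRNA, so 2838 genes were called higher in dKD against control in place of 464, and 761 were higher and 90 lower in Nr5a2 KD, in place of 457 and 586. Fdft1 stayed below the median in the Nr5a2 contrasts. With total counts dKD against Klf5 KD gave 1068 higher and 486 lower in place of 694 and 698. The number of all genes called moved by over 1.5 times in dKD against control (993, but 3016 with ERCC sizes, 1587 without a filter, 132 and 170 without control 1 and control 2), in Nr5a2 KD (655 with the covariate, 320 and 304 without control 1 and control 2), in dKD against Klf5 KD (532 with the replicate block, 926 at a mean of at least 50 counts, 911 without Klf5 KD 2, in place of 1392) and for Nr5a2 siRNA (919 at that mean). For Klf5 siRNA it was 59 without a filter, 38 with DESeq2, 2 with ERCC sizes and 0 with the replicate block in place of 7, and 0 without Nr5a2 KD 2 or dKD 4, 1 without Klf5 KD 1 and 2 without control 1, control 2, Nr5a2 KD 1 or Klf5 KD 2. Where edgeR called 0 genes, no filter gave 114 in Klf5 KD against control, 20 in dKD against Nr5a2 KD and 15 in the interaction, and the replicate block gave 253 in the first. For dKD against Nr5a2 KD, the groups that the numbers were taken to pair though no label says so, the replicate block changed no call of the 7 genes (Insig1 0.62, adjusted p = 0.741, Fdft1 0.12, adjusted p = 0.953 by edgeR). At a mean of at least 50 counts Sc5d had no value in most comparisons, and neither had Insig1 in Klf5 KD against control or Cyp51 and Scd2 in dKD against Klf5 KD. Few control libraries, the low Klf5 mRNA of Nr5a2 KD and low counts of Insig1 limit these comparisons.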
